A study of Mus musculus with 4 samples.

Results

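The Bcl2 family genes described here encode the proteins that set whether a cell releases cytochrome c from its mitochondria and dies. The 10 genes were chosen by name: the prosurvival genes Bcl2, Bcl2l1 and Mcl1, the effector genes Bax and Bak1, and the BH3-only genes Bcl2l11, Bbc3, Pmaip1, Bid and Bad. Of these, 9 had a probe set that the platform annotation pairs with exactly 1 gene symbol, among 22180 such genes. Bax had none and was not analysed here. The low-value filter kept a gene that reached, on at least 2 arrays, the array's 40th percentile of single-symbol probe sets, which lay between 3.74 and 3.77 log2 units. It left 13782 genes for testing, 8 of them members. All 8 reached the filter on all 4 arrays, so none was tested only through a genotype in which it was high.

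The samples were sorted naive CD4+ T cells (CD62L high, CD44 low, CD25 negative) from spleen and lymph nodes of C57BL/6 mice of both genotypes. One group lacked TACI, the product of Tnfrsf13b and a receptor for the cytokines BAFF and APRIL (TACI-/-), and the other was wild type (WT). No treatment, age or sex is given in the labels, nor how the TACI allele was made. Each genotype had 2 arrays (Affymetrix Mouse Gene 2.0 ST, 1 colour), called biological replicates of pooled tissue, and the number of mice in a pool is not stated. P-values therefore rest on the spread between these samples. In the main fit, limma moderated the variance of each gene towards a value common to all tested genes. The number of arrays limits the precision.

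Prosurvival proteins such as BCL2, BCL-XL (from Bcl2l1) and MCL1 hold the effectors BAX and BAK in check at the outer mitochondrial membrane. BH3-only proteins, which carry a single short helix that fits the groove of the prosurvival proteins, relieve that restraint, and some also activate the effectors directly. In naive T cells, interleukin 7 signalling keeps BCL2 high, MCL1 is needed for survival, and BIM (from Bcl2l11) drives much of the death that follows loss of survival signals.

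None of the 8 tested members differed between the genotypes after adjustment over all tested genes (limma, Benjamini-Hochberg adjusted p from 0.433 to 0.999), where 0.138% of all tested genes passed an adjusted p under 0.05. With any 1 array left out, no gene passed (limma), with 687 to 1138 genes at an unadjusted p under 0.05, against 1210 with all arrays. Bid was the 1 member with an unadjusted limma p under 0.05, and it was lower in TACI-/- cells. Over all tested genes 8.78% had an unadjusted p under 0.05, 4.94% higher and 3.84% lower, so 1 of 8 is close to the background. For 4 of the 8 tested members the values of the genotypes were fully separated. Bcl2 and Bcl2l11 lay above WT on both TACI-/- arrays, and Bak1 and Bid lay below. Among all tested genes 38.7% had groups that did not overlap, 20.5% with TACI-/- higher and 18.1% with TACI-/- lower. The median log2 fold change (TACI-/- minus WT) was -0.067 over the 8 members and 0.0074 over all tested genes. The range over the members was -0.45 to 0.27, and the 5th and 95th percentiles of all tested genes were -0.35 and 0.37.

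**Figure D1:**
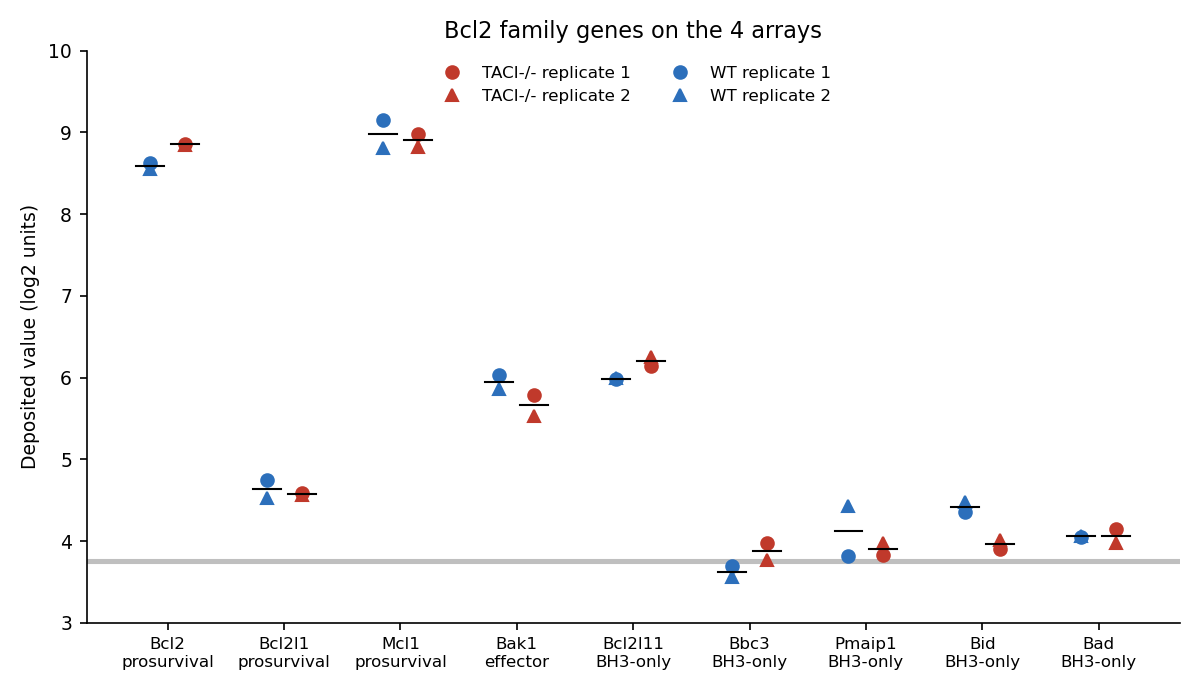
Deposited values (log2 units, vertical axis) of the 9 measured members on each array, WT in blue and TACI-/- in red, circles for replicate 1 and triangles for replicate 2, with a black line at each genotype mean and a grey band at the low-value filter. Bcl2 and Bcl2l11 sit higher and Bak1 and Bid lower on both TACI-/- arrays, Bbc3 lies around the filter, and heights of different genes cannot be compared because each has its own probes.

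Among the prosurvival genes, Bcl2 encodes the founding member, which guards resting lymphocytes. Its value was 8.86 and 8.85 log2 units on the TACI-/- arrays and 8.62 and 8.56 on the WT arrays. Both TACI-/- arrays were therefore above both WT arrays, by more than replicates of either genotype differed from each other. The log2 fold change was 0.27 ± 0.13 (SE), or 1.20-fold, with a 95% interval from -0.040 to 0.57 (limma adjusted p = 0.619). The unadjusted limma p was 0.0788, and 0.0239 with a prior variance that follows intensity. Over the alternatives that kept all arrays, the unadjusted p ran from 0.0154 with no variance moderation to 0.212 with the mean over probe sets. The latter gave a log2 fold change of 0.19, and the limma p with replicate number as a block was 0.113. A second, dimmer probe set of Bcl2 read 4.44 and 4.49 on the TACI-/- arrays, against 4.15 and 4.57 on the WT arrays. Its groups overlapped, and its log2 fold change was 0.11.

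Mcl1, a short-lived prosurvival protein that binds BIM, NOXA and BAK, was at 8.98 and 8.82 on the TACI-/- arrays, against 9.15 and 8.81 on the WT arrays. The WT arrays spanned both TACI-/- arrays. The log2 fold change was -0.077 ± 0.16 (SE), and its 95% interval ran from a ratio of 0.722 to 1.25. Its dimmer probe set had means of 5.03 and 4.98, a log2 fold change of 0.054. Bcl2l1 encodes BCL-XL, which T cells induce on activation. It was at 4.59 and 4.57 on the TACI-/- arrays, against 4.74 and 4.53 on the WT arrays, again with the WT arrays on either side. It differed by -0.057 ± 0.14 log2 units (SE), with a 95% interval from -0.39 to 0.28.

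Of the effectors, which form the pores in the mitochondrial membrane, Bak1 was measured. It read 5.78 and 5.53 on the TACI-/- arrays, against 6.04 and 5.86 on the WT arrays. All TACI-/- values were below all WT values, but the gap between the nearest arrays of the genotypes was smaller than the distance between replicates. The genotypes differed by -0.29 ± 0.15 log2 units (SE), 1.22-fold lower, with a 95% interval from -0.65 to 0.074 (limma adjusted p = 0.661).

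The BH3-only genes did not share a direction. Bid encodes a protein that caspase-8 cleaves, linking death receptors to mitochondria. It read 3.91 and 4.01 on the TACI-/- arrays, against 4.35 and 4.47 on the WT arrays. The genotypes were separated by more than the distance between replicates of either one. Its log2 fold change was -0.45 ± 0.13 (SE), 1.37-fold lower, with a 95% interval from -0.77 to -0.13 that is not adjusted for the number of genes. Its unadjusted limma p was 0.0131, rank 415 of the 13782 tested genes, and its adjusted p was 0.433. With a prior variance that follows intensity, the SE was 0.17 and the unadjusted limma p 0.0283. With no variance moderation the unadjusted p was 0.0311. The probe set was dim, with all 4 values near the filter. Without TACI-/- replicate 1 the unadjusted limma p was 0.0583, and without WT replicate 2 it was 0.072, so no member had an unadjusted p under 0.05 in those fits. The 3 other tested genes whose 4 centred values lay nearest to those of Bid were Cxcl16, Cldn12 and Rpl39, at root mean square distances of 0.018, 0.023 and 0.025 log2 units over the 4 arrays.

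Bcl2l11 encodes BIM, which binds all prosurvival proteins and limits the lifespan of naive T cells. It was at 6.15 and 6.25 on the TACI-/- arrays, against 5.98 and 6.00 on the WT arrays. The groups did not overlap, with TACI-/- above WT on both arrays. This was a log2 fold change of 0.21 ± 0.13 (SE), 1.16-fold, with a 95% interval from -0.10 to 0.52 (limma adjusted p = 0.717). Bbc3 encodes PUMA, a BH3-only protein induced by p53 and by FoxO factors. It was at 3.98 and 3.77 on the TACI-/- arrays, against 3.70 and 3.56 on the WT arrays. Only TACI-/- replicate 1 reached the filter, and TACI-/- replicate 2 fell just short, at 3.7723 against 3.7727. Bbc3 was therefore not tested, and in a fit of all genes without the filter its log2 fold change was 0.25 ± 0.15 (SE), with an unadjusted limma p of 0.145.

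Pmaip1 encodes NOXA, a BH3-only protein with a preference for MCL1. It was at 3.83 and 3.98 on the TACI-/- arrays, against 3.82 and 4.43 on the WT arrays. The WT replicates differed from each other more than the genotypes did, and only WT replicate 2 stood away from the rest. Its log2 fold change was -0.22 ± 0.21 (SE), -0.52 without WT replicate 1 and 0.090 without WT replicate 2. Bad encodes a BH3-only protein held inactive by phosphorylation. It was at 4.14 and 3.98 on the TACI-/- arrays, against 4.05 and 4.06 on the WT arrays, with both WT arrays between the TACI-/- arrays. The log2 fold change was 0.0022 ± 0.13 (SE), and its 95% interval ran from a ratio of 0.801 to 1.25. A further probe set that the annotation assigns to Bad together with another gene was not used.

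**Figure D2:**
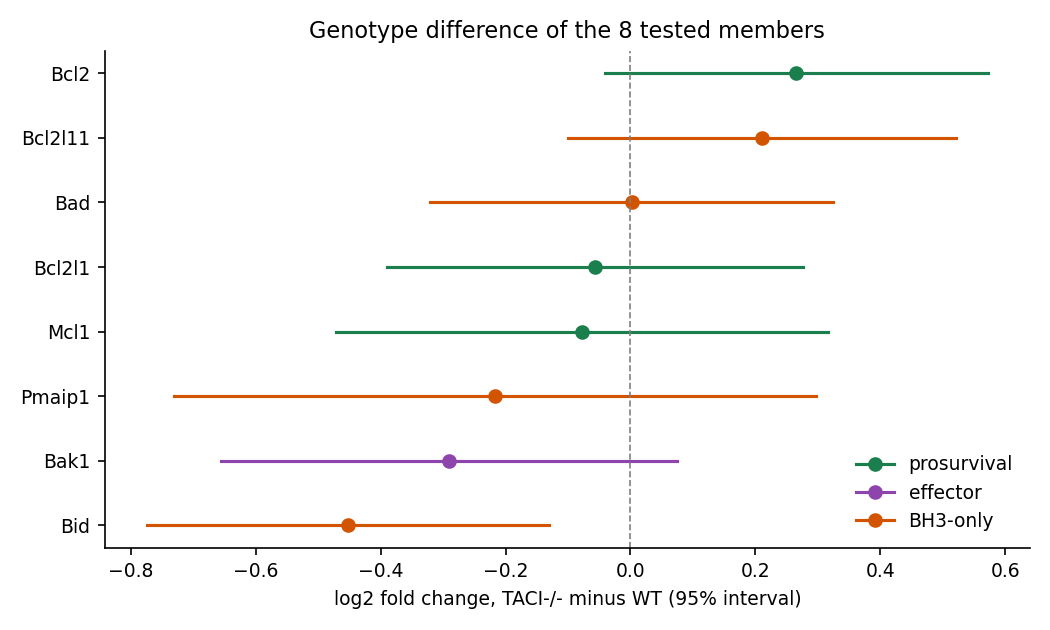
Log2 fold change, TACI-/- minus WT (horizontal axis), of the 8 tested members, with points at the limma estimate and lines for its 95% interval, coloured by role and ordered by size. The interval of Bid, from -0.77 to -0.13, lies below 0 before adjustment over genes, and the intervals of the other 7 span 0.

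Promoter sequences are shown for 3 of the 4 tested members whose arrays did not overlap, so that the regulatory DNA of 2 genes that read higher (Bcl2, Bcl2l11) can be set beside that of 1 that read lower (Bak1). Each is the 250 bases before the gene's outermost annotated start, 5′ to 3′ on the gene's strand, from RefSeq (GRCm38.p6). Windows were matched to members by symbol, and any on 1 chromosome, chosen beforehand, were left out. Windows of 9 of the 10 members remained, all but Pmaip1. Whether Pmaip1 had a window that was left out is not shown. The Bid window did not begin at that gene's outermost start and is not printed. The motifs searched, on both strands, were GTAAACA (FoxO factors), TGACGT (CREB family), TGANTCA (AP-1) and GGGCGG (Sp1). Capitals mark matches to the first 3 motifs, and no such match overlapped another motif.
Bcl2, chr1:106714291-106714540, minus strand: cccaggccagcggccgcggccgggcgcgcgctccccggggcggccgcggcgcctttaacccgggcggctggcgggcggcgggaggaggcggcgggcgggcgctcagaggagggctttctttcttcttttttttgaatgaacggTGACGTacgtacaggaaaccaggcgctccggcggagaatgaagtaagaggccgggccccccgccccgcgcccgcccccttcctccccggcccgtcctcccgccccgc
Bcl2l11, chr2:128125788-128126037, plus strand: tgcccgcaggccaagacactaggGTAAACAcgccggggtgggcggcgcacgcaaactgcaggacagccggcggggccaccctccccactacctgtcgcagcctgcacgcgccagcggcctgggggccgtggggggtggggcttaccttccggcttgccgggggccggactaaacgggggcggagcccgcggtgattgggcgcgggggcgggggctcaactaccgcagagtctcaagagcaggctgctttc
Bak1, chr17:27028628-27028877, minus strand: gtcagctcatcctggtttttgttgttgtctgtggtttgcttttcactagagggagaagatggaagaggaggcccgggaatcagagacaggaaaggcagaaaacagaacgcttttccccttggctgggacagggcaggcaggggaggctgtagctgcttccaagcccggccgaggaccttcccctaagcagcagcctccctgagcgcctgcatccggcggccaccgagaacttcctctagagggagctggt
The Bcl2 window held TGACGT, whose first base lies 107 bases before the start, and 6.47% of the 32851 promoter windows of this length held that motif. The Bcl2l11 window held GTAAACA, beginning 227 bases before the start, a motif found in 3.17% of windows. The Bak1 window held none of the 4 motifs. Sp1 motifs, present in 32.7% of windows, numbered 7 in Bcl2 and 3 in Bcl2l11. GC content was 74.8% for Bcl2, 72% for Bcl2l11 and 58.4% for Bak1, against a median of 52.4% over all windows. The Bid window, of a gene that also read lower, held 3 Sp1 motifs at 63.6% GC. The window at the outermost start of Bad, whose log2 fold change was 0.0022, held 3 at 62.8% GC. A second Bcl2l11 window, not at the outermost start and not printed, held Sp1 motifs only. A Bbc3 window, also not at the outermost start, held the FoxO motif on the opposite strand, beginning 167 bases before its start. A relation of motifs or GC content to the direction of a gene was not tested. A match describes the letters and is not evidence of a bound site.

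Prosurvival genes were then set against proapoptotic genes within each array, using each gene's difference from its own mean over the 4 arrays. The mean of the 3 prosurvival genes was 0.044 log2 units higher in TACI-/- than in WT cells. The mean of the 5 tested proapoptotic genes was 0.15 lower in TACI-/- cells (a difference of -0.15). The prosurvival minus proapoptotic difference was 0.12 and 0.072 on the TACI-/- arrays and 0.066 and -0.26 on the WT arrays. TACI-/- replicate 2 and WT replicate 1 were nearly equal, and WT replicate 2 stood apart. The genotype difference was 0.19 log2 units, against a pooled SD between replicates of 0.16. It was 0.031 without WT replicate 2, the array with the high Pmaip1 value, and 0.36 without WT replicate 1. It was 0.13 with Bbc3 included and 0.078 with the median over members in place of the mean. No test was applied to this difference.

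Pairs of a prosurvival gene and a BH3-only gene that its protein binds were compared in the same way. Bcl2 minus Bcl2l11, each relative to its mean, was 0.082 and -0.026 on the TACI-/- arrays and 0.015 and -0.071 on the WT arrays. The genotypes overlapped, since both genes read higher in TACI-/- cells by like amounts, and the difference between genotypes was 0.056 log2 units. Mcl1 minus Pmaip1 was 0.22 and -0.080 on the TACI-/- arrays and 0.41 and -0.55 on the WT arrays. The WT arrays held the highest and the lowest of these values.

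**Figure D3:**
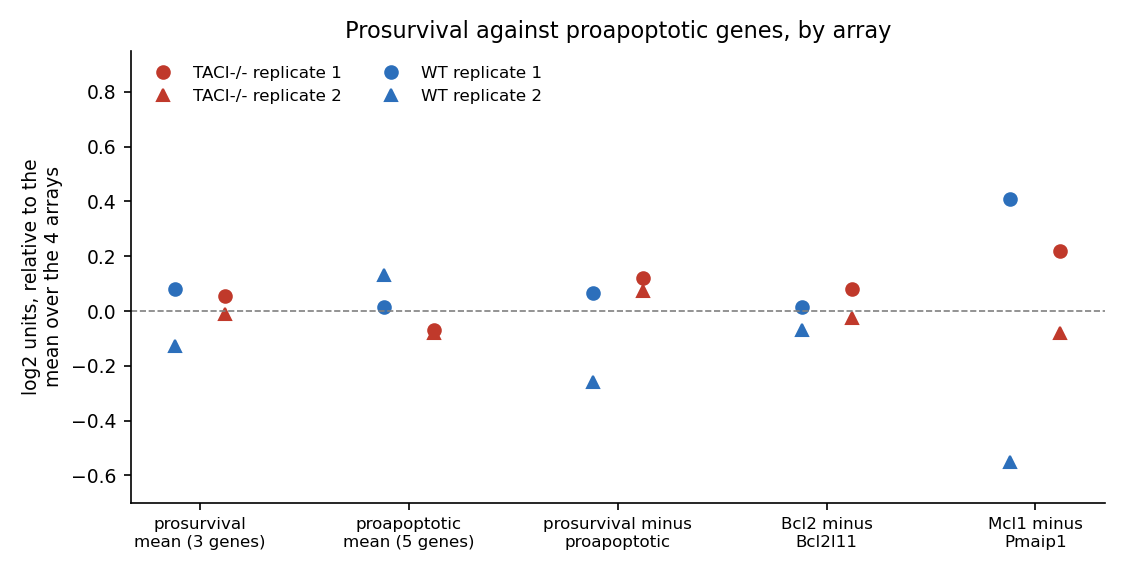
Mean of the prosurvival genes, mean of the tested proapoptotic genes, their difference, and the pairs Bcl2 minus Bcl2l11 and Mcl1 minus Pmaip1, in log2 units relative to the mean over the 4 arrays, 1 point per array. For the prosurvival minus proapoptotic difference, WT replicate 2 lies at -0.26 while the other 3 arrays lie between 0.066 and 0.12.

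Other genes of cell death and survival were read from lists, chosen with earlier results of these data known. Of 65 genes, 49 were tested. None passed the adjusted threshold in either direction; at an unadjusted limma p under 0.05, 4 were higher and 4 lower in TACI-/- cells (8.78% of all tested genes in both directions). Their median log2 fold change was 0.018. Within the Bcl2 family beyond the 10 members, 6 genes were tested and none had an unadjusted p under 0.05. Bcl2a1c and Bcl2a1a, of the A1 cluster of near-identical prosurvival genes, whose probes can be shared and whose separate values are uncertain, had log2 fold changes of 0.44 ± 0.27 and 0.19 ± 0.20 (SE), and the prosurvival gene Bcl2l2 had -0.068. Bok, an effector relative, had -0.17, Bik, a BH3-only gene, -0.10, and Bnip3, a mitochondrial relative, 0.015. Bmf, a BH3-only gene, was below the filter on all 4 arrays.

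Of the 9 tested apoptosome and caspase genes, 2 had an unadjusted limma p under 0.05, both lower in TACI-/- cells. Over all tested genes the share lower at that threshold was 3.84%. Casp2, an initiator caspase linked to DNA damage, was at 6.63 and 6.61 on the TACI-/- arrays, against 7.17 and 6.95 on the WT arrays. Its log2 fold change was -0.44 ± 0.14 (SE, limma adjusted p = 0.484). Casp9, the initiator caspase that the apoptosome activates downstream of BAX and BAK, was at 4.63 and 4.74 on the TACI-/- arrays, against 5.07 and 5.11 on the WT arrays. Its log2 fold change was -0.40 ± 0.13 (SE, limma adjusted p = 0.496). For both caspases all TACI-/- values lay below all WT values, as they did for 18.1% of all tested genes. Cycs (cytochrome c) had -0.12 and Htra2, a mitochondrial protease, 0.13, and Apaf1, the apoptosome scaffold, had 0.016. Cycs had 5 probe sets under its symbol and many near-identical copies in the genome, so its value is uncertain.

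Of the 4 tested inhibitor of apoptosis genes, none had an unadjusted limma p under 0.05. Xiap had a log2 fold change of -0.24, Birc6 -0.19, Birc3 0.16 and Birc2 0.10. Among the death receptor genes, which act from the cell surface, 2 of 8 tested had an unadjusted limma p under 0.05. Both were higher in TACI-/- cells, against a share of 4.94% higher at that threshold over all tested genes. Fasl, the ligand of the death receptor Fas, was at 6.41 and 6.24 on the TACI-/- arrays, against 5.35 and 5.64 on the WT arrays (log2 fold change 0.83 ± 0.16, SE, limma adjusted p = 0.221). Tnfrsf10b, the TRAIL receptor of the mouse, was at 5.63 and 5.76 against 4.97 and 5.10 (0.66 ± 0.14, SE, limma adjusted p = 0.256). Fas itself had -0.23 and Cflar, which encodes the caspase-8 inhibitor c-FLIP, -0.24.

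Regulators upstream of the family were mixed. In the p53 list (7 tested), Mdm2, the ubiquitin ligase that restrains p53 and is itself a p53 target, differed by 0.38 ± 0.13 log2 units (SE, limma adjusted p = 0.504). Mdm4, a related p53 inhibitor, had -0.39 ± 0.13 (SE, limma adjusted p = 0.496). The p53 target gene Aen had -0.21, and Sesn2, which reached the filter on 2 of the 4 arrays, had 0.20. In the interleukin 7 list (6 tested), Pim1, a survival kinase induced by STAT5, was at 7.99 and 7.71 on the TACI-/- arrays, against 7.15 and 7.13 on the WT arrays (0.71 ± 0.15, SE, limma adjusted p = 0.258). Il7r, the receptor chain of that pathway, was at 9.99 and 10.1 against 10.7 and 10.4 (-0.48 ± 0.15, SE, limma adjusted p = 0.452). Stat5b and Stat5a had 0.23 and 0.13. Among 9 regulators of BH3-only genes and of MCL1, none had an unadjusted limma p under 0.05. Foxo1, a factor of the family that binds FoxO motifs, had 0.23 ± 0.14 (SE). Btrc and Huwe1, both of ubiquitin ligases, had 0.19 and -0.18, and E2f1, a cell cycle factor, had 0.15.

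**Figure D4:**
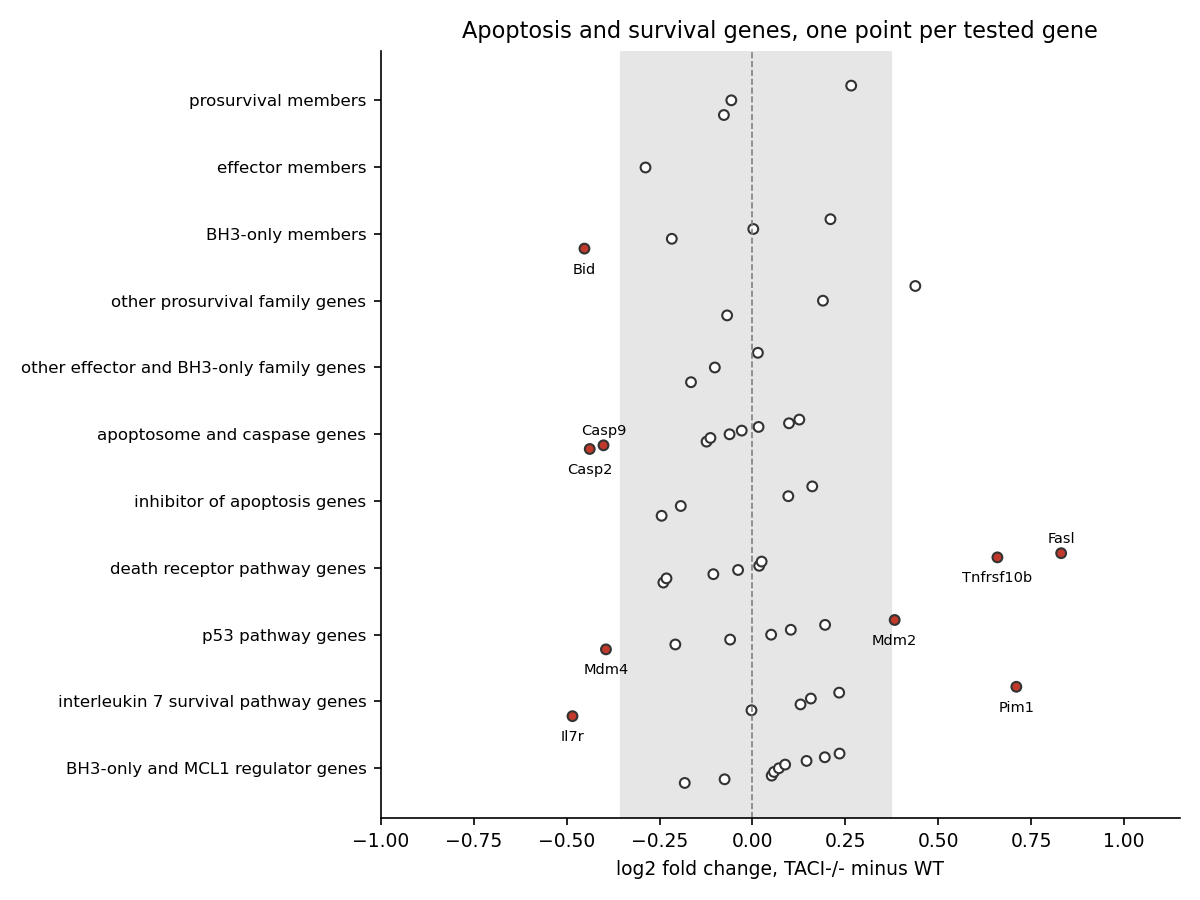
Log2 fold change, TACI-/- minus WT (horizontal axis), of each tested gene by list (rows); filled red points have an unadjusted limma p under 0.05, and the grey band spans the 5th to the 95th percentile of all tested genes, -0.35 to 0.37. Bid is the only family gene filled, and Fasl, Pim1 and Tnfrsf10b lie farthest above the band.

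Over the tested genes the arrays of a genotype correlated at 0.982 and 0.984 (Pearson's r, genes not being independent replicates), and arrays of different genotypes at 0.976 to 0.981. All 8 measured naive CD4 T cell markers were above the filter on all 4 arrays, with Cd4 at 10.4 to 10.6 log2 units and Cd3e at 11.2 to 11.6. Their summed level was 13.3 to 13.4 log2 units in TACI-/- and 13.4 to 13.5 in WT cells. Of the 8, 6 had negative log2 fold changes, as did 6645 of all 13782 tested genes. Il7r, Cd3d, Cd3e and Cd3g were lower on both TACI-/- arrays than on either WT array, as were 18.1% of all tested genes. Cd8a was below the filter on all 4 arrays, while Cd8b1 was above it on all 4, at 6.11 and 5.73 on the TACI-/- arrays and 6.55 and 6.59 on the WT arrays. Markers of other states and cells were read beside the members. These lists too were chosen with earlier results of these data known. An unadjusted limma p under 0.05 occurred in 8.78% of all tested genes. Of 13 activation and memory markers, 4 passed the adjusted threshold, led by Nr4a3 and Irf4, against 0.138% of all tested genes. Log2 fold changes were positive for 11 of the 13 and negative for 2, against 7137 positive among all 13782 tested genes. Cd44 and Il2ra had 0.19 and 0.29. Il2ra and Ctla4 were also on the list of regulatory T cell markers, so these lists are not separate observations. Ctla4 passed the adjusted threshold and was the 1 regulatory marker to do so. Myc had -0.20 and was lower on both TACI-/- arrays than on either WT array. The summed level of the 13 was 11.4 to 11.5 log2 units in TACI-/- and 10.6 to 10.8 in WT cells. That of 8 regulatory T cell markers was 8.45 to 8.49 against 7.65 to 7.87, with 5 of 6 tested markers higher at an unadjusted limma p under 0.05, 2 of which (Ikzf2 and Tigit) were tested only through the TACI-/- arrays, 2 markers below the filter on all arrays, and Foxp3 at 6.19 and 5.98 against 5.63 and 5.38. That of 10 measured B cell markers was 7.96 to 8.29 against 7.67 to 7.76, with 4 of 7 tested markers higher at an unadjusted limma p under 0.05, of which Ly86 was tested only through the TACI-/- arrays, none past adjustment, and Ms4a1 below the filter on all arrays. Those of 8 CD8 T and NK cell markers and 9 myeloid markers were 7.66 to 7.73 against 7.90 to 8.01 and 7.70 to 7.85 against 7.57 to 7.73, with 3 and 4 of their markers below the filter on all arrays. At an unadjusted limma p under 0.05, 1 of 4 tested CD8 T and NK cell markers was higher (Eomes) and 2 lower (Klrd1 and Cd8b1), and 1 of 5 tested myeloid markers was higher and 2 lower. In a sorted bulk sample a change in the share of cells and a change in RNA per cell cannot be told apart, and the part of these markers in the values of the Bcl2 family genes was not tested.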

How the data were processed

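Naive CD4+ T cells of 2 genotypes, 2 arrays each, were assigned to groups by the genotype named in each title. The deposited table holds 1 value per probe set and array (41345 probe sets), which the authors made on a log scale taken here as log2; the base is not stated. The submitters' processing notes list RMA, which corrects background, normalizes by quantiles and summarises probes, and Partek; neither has a version there. A gene was its brightest probe set with 1 symbol in the platform annotation (23521 probe sets; 1814 had several symbols and 16010 none there).

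The test was limma 3.58.1 under R 4.3.3 (lmFit and eBayes on genotype alone, two-sided), with Benjamini-Hochberg adjustment over the 13782 tested genes and a threshold of 0.05. The fit was run on simulated data drawn from its own variance model, which cannot show how well that model describes these arrays. Errors are moderated SE. An exact permutation test of 2 against 2 arrays cannot go below p = 0.333, so none was used. The members and lists were chosen with earlier results of these data known. Named were all members, up to 4 genes per pathway list by p, fixed sort markers and leading genes of marker lists. The 3 genes nearest to the member with the smallest p were also named. Bmf, Apaf1, Myc, Ms4a1, Cd3g, Cd8b1, Tigit and the order of examples were chosen after their values were seen. Alternatives changed the low-value filter, the scaling (median centring, a repeated quantile normalization), the choice of probe set, the variance model, the block, the threshold, or left 1 array out. Lists were not tested as sets. Promoter sequences came from RefSeq (GRCm38.p6).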

Additional observations from a re-analysis of the deposited data

How the results depend on the processing

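No member passed the adjusted threshold under any of the alternatives tried (limma). Over the 14 fits the log2 fold changes of Bcl2, Bak1, Bcl2l11, Bbc3 and Bid were 0.19 to 0.31, -0.42 to -0.16, 0.16 to 0.26, 0.15 to 0.35 and -0.51 to -0.39. Other filters, variance models and the block cannot alter a fold change, and separated groups fix its sign when 1 array is left out, so the common sign of these 5 was open to change only under other scaling or probe sets. The other members changed sign in some fits. Bad had -0.016 with median centring and -0.0018 with quantile normalization again. Without 1 array, Bad ranged from -0.081 to 0.085, Mcl1 from -0.25 to 0.097, Bcl2l1 from -0.16 to 0.048 and Pmaip1 from -0.52 to 0.090; the sign changed without TACI-/- replicate 1 for Bad, TACI-/- replicate 2 for Mcl1, WT replicate 1 for Bad, Bcl2l1 and Mcl1, and WT replicate 2 for Pmaip1. Members at an unadjusted p under 0.05 numbered 2 with quantile normalization again, with a variance trend and with no variance moderation (Bid and Bcl2 in each), 0 to 2 without 1 array, and 0 at a threshold of 0.01. The prosurvival minus proapoptotic difference ranged from 0.031 to 0.36 without 1 array. Over all tested genes the adjusted calls were 19, against 3 with no filter, 35 with the filter on all 4 arrays, 46 with a variance trend, 0 with no moderation (986 at an unadjusted p under 0.05), 0 without any 1 array, and 38 at a threshold of 0.1. Unadjusted counts were 1210, against 360 at 0.01 and 687 to 1138 without 1 array (687 without WT replicate 1). With the replicate block, Bid had an unadjusted limma p of 0.0189 and an adjusted p of 0.484, and the block changed no call of a member. Same-numbered arrays deviated from their genotype means with r = -0.032 over the tested genes, so no shared deviation was seen. With so few arrays this r cannot decide whether the samples were handled in pairs, and the labels do not say. Without 1 array the lone sample of a genotype is assumed to vary like the other. Signal near the filter limits Bid, Bbc3, Pmaip1 and Bad.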
